A study of Mus musculus with 6 samples.

Results

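The mRNAs of 10 genes whose products are commonly used to identify exosomes were measured after Shh or vehicle treatment of the liver cell line Hepa 1-6. The genes were taken by symbol from a deposited table of 18169 genes: the tetraspanins Cd63, Cd9, Cd81, Cd82, Cd151 and Tspan8, the flotillins Flot1 and Flot2, the sphingomyelinase gene Smpd3, and Canx, which encodes calnexin, the usual negative marker. All 10 had a row and all 10 passed the expression filter. Hepa 1-6 is a cultured line derived from a mouse hepatoma, with no other genetic change named in the labels. Shh, or Sonic hedgehog, is the secreted ligand of the Hedgehog pathway, and the study used it to ask how Shh acts on hepatocytes. There were 3 libraries per group, made from poly(A) RNA of whole cells. How much Shh these cells received, and for how long, is not stated in the labels or methods. Nothing in the labels ties each library to its own culture. The spread between libraries, and every p-value resting on it, may therefore be technical.

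Exosomes are small vesicles that form inside multivesicular bodies and are released when these fuse with the plasma membrane. Tetraspanins are small membrane proteins that gather integrins, proteases and other partners into membrane domains, and several of them are enriched in exosomes. Flotillins are scaffold proteins of lipid rafts, and the enzyme encoded by Smpd3, a neutral sphingomyelinase, makes the ceramide used in a route by which vesicles bud into multivesicular bodies. Calnexin is a chaperone held in the membrane of the endoplasmic reticulum (ER), so a preparation of exosomes should lack its protein. The values here are mRNA levels in the producing cells, and neither vesicles nor proteins were analysed here.

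The tetraspanin genes dominated the set by level. Levels between genes are given as deposited FPKM, that is fragments scaled by transcript length and library size, which takes account of length. Cd63, a tetraspanin of late endosomes and multivesicular bodies, was highest, with 668.8, 581.2 and 685.7 FPKM in the Shh libraries against 698.4, 682.8 and 678.8 FPKM in the vehicle libraries. Next came Cd9, a tetraspanin of the cell surface, at 298.5 ± 1.81 FPKM with Shh and 306.8 ± 10.3 FPKM with vehicle (SD, n = 3 each). Tspan8, a tetraspanin found in many epithelial tumours, was at 289.7 ± 11.5 FPKM with Shh and 299.1 ± 9.92 FPKM with vehicle. The ranges of Cd9 and Tspan8 over the 6 libraries overlapped, and Cd9 was the higher of the pair in 5 of the 6. Below them stood Cd151, a partner of laminin-binding integrins, at 193.8 to 204.9 FPKM, and Cd81, a partner of B cell and immune receptors as well as a hepatitis C virus receptor in human liver, at 182.8 to 190.8 FPKM over all libraries. Canx followed at 128.9 to 156.9 FPKM, so the 5 most abundant tetraspanins all lay above the negative marker in every library. Cd82, known as a suppressor of metastasis, was the least abundant of the 6 tetraspanins, at 69.5 to 75.2 FPKM. The remaining genes were lower: Flot2 reached 54.5 to 58.1 FPKM, Flot1 25.9 to 29.1 FPKM and Smpd3 10.8 to 11.9 FPKM. Apart from Cd9 and Tspan8, no neighbours in this order overlapped in their ranges. CPM per kilobase gave the same order by construction, because its lengths were recovered from these counts and FPKM.

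**Figure D1:**
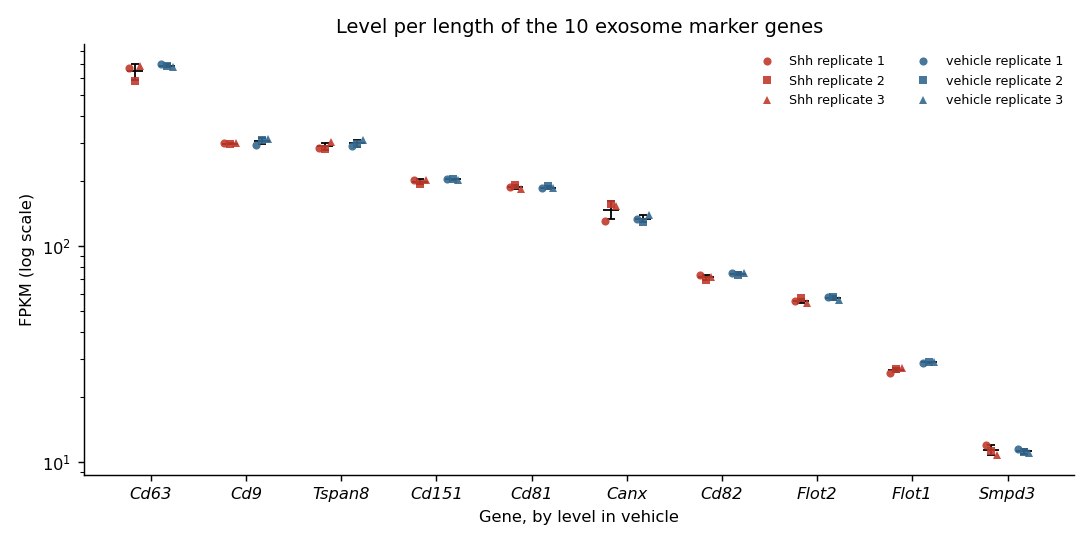
FPKM (log axis) of the 10 genes in each library, Shh in red to the left and vehicle in blue to the right, with black bars for the mean and SD of 3 libraries. Cd63 lies between 581.2 and 698.4 FPKM and Smpd3 between 10.8 and 11.9 FPKM, while for each gene the groups lie close together.

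Of the 30 tetraspanin genes in the table, these 6 held most of the mRNA. Together they made up 76.3 ± 0.71% of the summed FPKM of the family with Shh and 76.5 ± 0.23% with vehicle (SD, n = 3 each). Cd63 alone held 29.1 ± 1.65% with Shh and 29.9 ± 0.51% with vehicle. The most abundant tetraspanins outside the set were Tspan4, which is known from migrasomes, with 6.38 ± 0.14% under Shh and 6.69 ± 0.10% under vehicle, and Tspan31, with 5.85 ± 0.13% under Shh and 5.84 ± 0.17% under vehicle. Both were above Cd82. Cd37, a tetraspanin best known from leukocytes and named here after its value was seen, reached 21.9 FPKM with Shh and 22.5 FPKM with vehicle on average. The summed level of the family was 2237, 2137 and 2273 FPKM in the Shh libraries against 2293, 2297 and 2301 FPKM in the vehicle libraries. The Shh libraries were thus all below the vehicle libraries in this sum, with Shh replicate 2 the lowest.

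**Figure D2:**
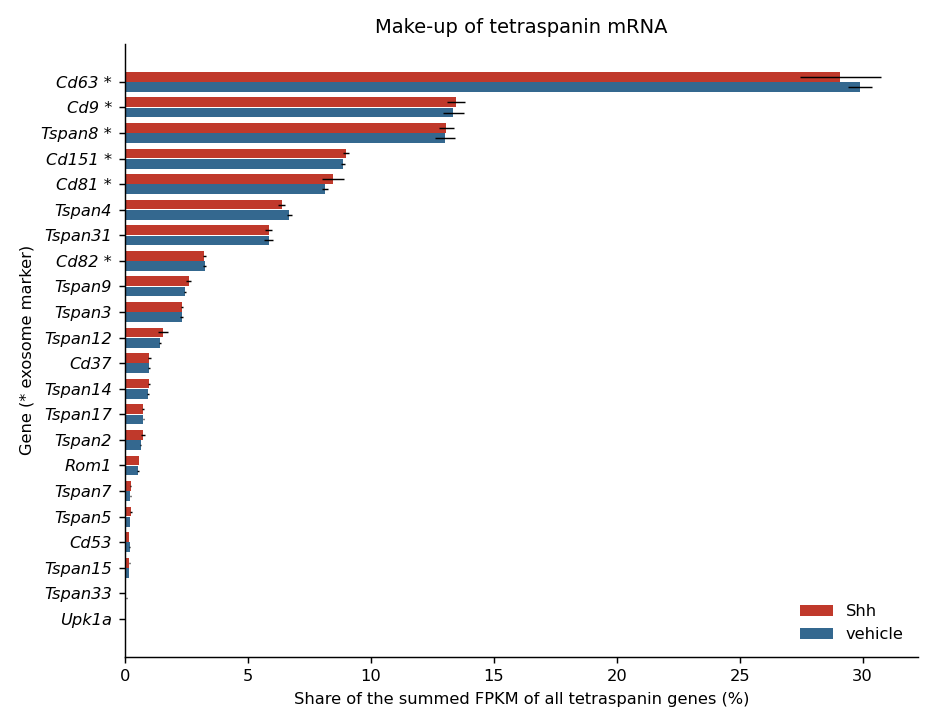
Share of each tetraspanin gene in the summed FPKM of the family, in percent, for the 22 genes with at least 1 FPKM in vehicle; bars are the means of 3 Shh (red, upper) and 3 vehicle (blue, lower) libraries and lines are SDs. Cd63 takes the largest share, 29.1% with Shh and 29.9% with vehicle, and the 6 starred genes together hold 76.3% and 76.5%.

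Estimated counts per library summed to 20253781 to 20291075 with Shh and to 20278619 to 20335463 with vehicle, and 12286 genes were tested with edgeR. By chi-square divided by its degrees of freedom, Shh replicate 2 stood farthest from the vehicle libraries, at 9.80 to 12.25, while Shh replicate 1 was at 2.22 to 2.71. On this scale the Shh libraries differed from each other by up to 9.66 and the vehicle libraries by 1.72 to 2.35, and none repeated another. Fold changes also moved with transcript length over all genes (Spearman's rho 0.54 across 11471 genes, which are not independent replicates): short transcripts tended to be lower and long ones higher with Shh. The Hedgehog target Ptch1 had 33.8, 36.9 and 34.8 CPM (the count scaled to a common library size after TMM normalization) with Shh against 35.6, 31.4 and 36.4 CPM with vehicle, and Gli1 had 2.33, 2.70 and 2.16 CPM with Shh against 2.50, 2.14 and 2.37 CPM with vehicle. The groups overlapped for both targets, whose small estimates turned sign when single libraries were left out.

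No exosome marker gene differed between Shh and vehicle at an adjusted p under 0.05 (edgeR's quasi-likelihood test, Benjamini-Hochberg over all genes). The count was 0 of 10 in edgeR and 0 of 10 in DESeq2, where the background in edgeR was 0% of all genes tested. At an unadjusted p under 0.05, 1 of the 10, Flot1, was lower and 0 were higher, beside 5.56% of all genes lower and 4.83% higher. The log2 fold changes lay between -0.14 and 0.11, with standard errors of 0.038 to 0.061 and adjusted p-values of 0.469 to 0.980. The 95% confidence intervals of the 10 genes stayed within a fold of 0.843 to 1.18. The estimates were below 0 for 9 genes and above 0 for Canx, with a median of -0.063, against a median of 0.0028 over all genes tested, of which 48.8% were below 0. In 5 of the 10 (Cd63, Cd82, Cd151, Flot1 and Flot2) every Shh library was below every vehicle library, as in 8.67% of all genes tested, and 0 of the 10 had every Shh library above, as in 6.79% of all genes. An exact permutation test of 3 against 3 libraries cannot give a two-sided p below 0.10 for any single gene. In bulk RNA, fewer cells expressing a gene and less of its RNA per cell cannot be told apart.

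Among the 6 tetraspanins of the set, Cd63 had the estimate farthest from 0 before any correction for transcript length. It had 573.7, 484.4 and 582.8 CPM in the Shh libraries, against 604.2, 589.0 and 583.3 CPM in the vehicle libraries. Shh replicate 2 was far below the other 5 libraries, while Shh replicate 3 lay next to the lowest vehicle library. The log2 fold change was -0.11 ± 0.061 (SE), with a 95% interval of -0.25 to 0.018 and an adjusted p of 0.512 by edgeR. Without Shh replicate 2 the estimate was -0.035.

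Cd151 had 356.8, 332.7 and 351.8 CPM with Shh against 365.6, 361.6 and 358.8 CPM with vehicle. Again Shh replicate 2 was lowest and Shh replicate 1 lay just under the vehicle range, and the log2 fold change was -0.061 ± 0.040 (SE). Cd82 had 124.4, 115.5 and 123.2 CPM with Shh against 128.5, 124.6 and 127.2 CPM with vehicle. Its groups were separated by less than 1 CPM, and its log2 fold change was -0.067 ± 0.043. Cd9 had 345.8, 332.1 and 341.6 CPM with Shh against 343.1, 360.6 and 363.1 CPM with vehicle, and Tspan8 had 347.5, 334.1 and 367.9 CPM with Shh against 358.3, 363.0 and 379.7 CPM with vehicle. In both genes the groups overlapped, at log2 fold changes of -0.065 ± 0.040 and -0.069 ± 0.045. Cd81 had the estimate nearest to 0 among these 6, with 276.4, 273.6 and 267.3 CPM under Shh and 275.0, 281.5 and 273.3 CPM under vehicle. Its log2 fold change of -0.022 ± 0.038 had a 95% interval of -0.10 to 0.060. Without Shh replicate 2 the estimates were -0.034 for Cd82, -0.031 for Cd151 and -0.038 for Tspan8, and that replicate was the lowest of the 6 libraries in 5 of the 10 genes.

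**Figure D3:**
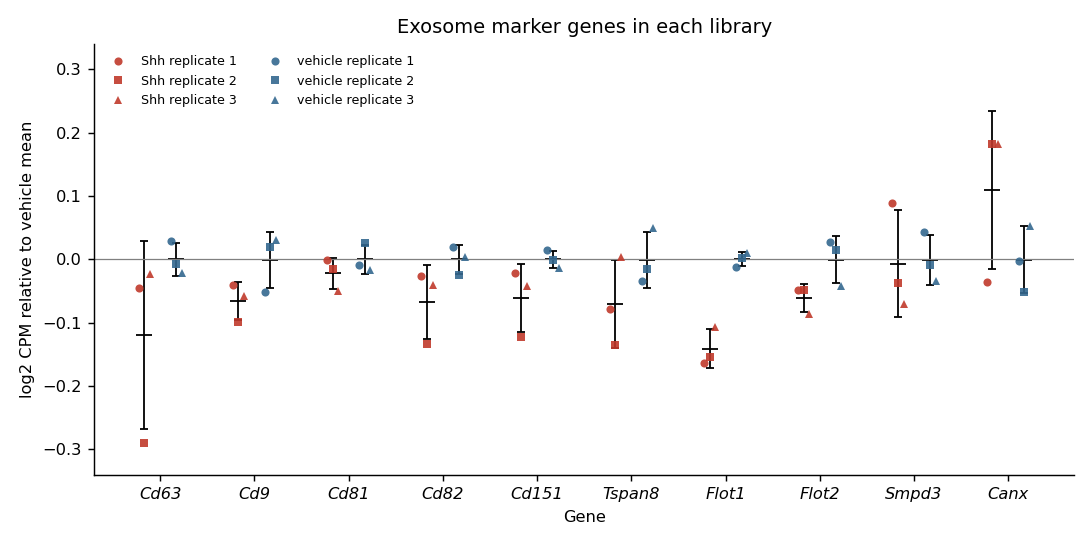
Log2 CPM of the 10 genes relative to the mean of the vehicle libraries, Shh in red to the left and vehicle in blue to the right, with symbols for replicate numbers and black bars for the mean and SD of 3 libraries. Shh replicate 2 lies at -0.29 for Cd63, all Shh libraries of Flot1 lie between -0.16 and -0.11, and Canx lies at 0.18 in Shh replicates 2 and 3.

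The flotillins were both lower in every Shh library than in any vehicle library. Flot1 had 42.7, 43.0 and 44.4 CPM with Shh against 47.4, 47.9 and 48.1 CPM with vehicle. The gap between the groups was wider than the range within either, and no Shh library stood apart from the others. The log2 fold change was -0.14 ± 0.045 (SE), with a 95% interval of -0.24 to -0.043, an unadjusted p of 0.00876 and an adjusted p of 0.469 by edgeR, so it did not pass over all genes. Flot2, its partner in flotillin oligomers, had 144.8, 144.7 and 141.1 CPM with Shh against 152.5, 151.2 and 145.4 CPM with vehicle. Vehicle replicate 3 came within 1 CPM of the nearest Shh libraries, and the log2 fold change was -0.061 ± 0.040.

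Before any correction for transcript length, Smpd3 showed the estimate nearest to 0. It had 60.1, 55.1 and 53.8 CPM with Shh against 58.2, 56.2 and 55.2 CPM with vehicle, so the Shh libraries held both the highest and the lowest values. The log2 fold change was -0.0051 ± 0.053 (SE), with a 95% interval of -0.12 to 0.11. The sign turned when Shh replicate 2, Shh replicate 3 or vehicle replicate 1 was left out. With the length offset described below, Smpd3 was at -0.060 ± 0.056, with a 95% interval of -0.18 to 0.060. When Shh replicate 1 was also left out it was at -0.13. Smpd3 was also the single gene of the set with counts that were not whole in all 6 libraries.

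Canx, the negative marker, was the only gene of the set with an estimate above 0 before any correction for transcript length. It had 558.5, 649.4 and 649.2 CPM in the Shh libraries against 571.2, 552.1 and 593.9 CPM in the vehicle libraries. Shh replicates 2 and 3 were above all vehicle libraries and Shh replicate 1 lay among them, so the groups overlapped. The log2 fold change was 0.11 ± 0.057 (SE), with a 95% interval of -0.011 to 0.24 and an adjusted p of 0.499 by edgeR. Without Shh replicate 1 it was 0.18 with an adjusted p of 0.0541, the lowest of any exosome marker gene under any setting, and 1.57% of all genes were called in that comparison. With the length offset described below and without Shh replicate 1, Canx was at 0.13 with an adjusted p of 0.153 by edgeR.

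The promoters of Canx and Cd63 are shown for their estimates before any correction for transcript length. Canx then had the only estimate above 0 within the set, and Cd63 had the lowest among its 6 tetraspanins. The sequences are those of RefSeq on GRCm38.p6, from 250 bases before to 50 bases after the start of the gene, and 8 of the 10 genes had an entry, with 12 promoters in all. In capitals is the ER stress response element, searched on both strands as CCAAT and CCACG separated by 9 bases, an element through which chaperone genes of the ER respond to unfolded proteins.
Canx promoter, chr11:50325624-50325923, minus strand: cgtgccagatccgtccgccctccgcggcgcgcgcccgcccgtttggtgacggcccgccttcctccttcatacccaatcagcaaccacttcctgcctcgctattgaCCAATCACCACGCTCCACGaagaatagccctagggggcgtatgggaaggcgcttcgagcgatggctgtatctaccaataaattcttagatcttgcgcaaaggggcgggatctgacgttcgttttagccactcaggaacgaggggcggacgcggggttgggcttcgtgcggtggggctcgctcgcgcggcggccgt
Cd63 promoter, chr10:128909095-128909394, plus strand: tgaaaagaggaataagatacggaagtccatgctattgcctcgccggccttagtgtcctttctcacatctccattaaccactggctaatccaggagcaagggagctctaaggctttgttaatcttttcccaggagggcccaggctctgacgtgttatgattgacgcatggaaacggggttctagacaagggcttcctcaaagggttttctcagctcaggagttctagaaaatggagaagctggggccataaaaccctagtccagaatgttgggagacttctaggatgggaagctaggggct

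The ER element was in 0.119% of 32851 promoters of this length, and Canx was the only gene of the set that held it. The Gli motif GACCACCCA was in 0.253% of these promoters and the E-box CACGTG in 7.15%, each searched on both strands, and neither was in a promoter of the 8 genes. A match describes letters in this window and is not a test of binding. Of 25 genes with a promoter among Canx and the genes of the calnexin cycle, the ER element was in 5: Canx, Calr, Pdia6, Hspa5 and Hsp90b1. Their estimates lay on both sides of 0. Calr, the soluble counterpart of calnexin, had a log2 fold change of -0.060, and Pdia6, a disulfide isomerase, had -0.023. Hspa5, the BiP chaperone, had -0.011 and Hsp90b1, the ER form of Hsp90, had 0.050. By edgeR, their unadjusted p-values were 0.152 for Calr, 0.364 for Hsp90b1, 0.699 for Pdia6 and 0.784 for Hspa5.

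The genes whose course over the 6 libraries was most like that of Canx and Cd63 were sought by the root mean square difference of log2 CPM, each gene centred on its own mean, over 9589 genes with at least 5 CPM. For Canx these were Aff4, Arfgef1 and Trim37, at 0.0109, 0.0114 and 0.0117. For Cd63 they were Dbndd2, Rpl23a and Cox5b, at 0.0117, 0.0121 and 0.0140. The transcripts of the genes most like Canx were long (9720, 6993 and 4702 bases), while Rpl23a and Cox5b, at 511 and 520.0 bases, were short and Dbndd2, at 3676 bases, was not.

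Set against Canx within each library, Cd63 had 1.03, 0.746 and 0.898 counts per Canx count with Shh and 1.06, 1.07 and 0.982 with vehicle. The log2 ratio was -0.18 ± 0.23 with Shh and 0.049 ± 0.066 with vehicle (SD, n = 3 each), a difference of -0.23 with overlapping groups. Without Shh replicate 2 the difference was -0.11, and without Shh replicate 1 it was -0.34. For Flot1 the ratio to Canx was 0.0764, 0.0662 and 0.0684 with Shh against 0.0830, 0.0867 and 0.0810 with vehicle. Here all Shh libraries were below all vehicle libraries, and the log2 difference was -0.25. The ratio of Tspan8 to Canx was also lower in all Shh libraries, at a difference of -0.18, and the groups overlapped for the other ratios. How often such ratios separate over all genes was not computed. Such a ratio shows unequal change of its 2 genes and does not say which of them moved.

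The exosome marker genes are unequal in transcript length, the property with which fold changes moved over all genes. The length behind the counts, recovered from counts and FPKM, was 854 bases for Cd63, 1148 for Cd9 and 1216 for Tspan8, against 4238 bases for Canx and 5017 for Smpd3. The median of the 10 was 1667 bases, and that of all genes with a length was 2690 bases. At the length of Cd63, the trend over all genes relative to vehicle was -0.018, -0.20 and -0.084 (log2) in Shh replicates 1 to 3. At the length of Canx it was 0.016, 0.082 and 0.031.

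With an offset that takes the trend out of each library, 3 of the 10 estimates were above 0 and 7 below, with a median of -0.023. Cd63 then had a log2 fold change of -0.018 ± 0.036 (SE), Cd9 had 0.0091 ± 0.034, Cd81 had 0.029 ± 0.035 and Tspan8 had -0.00064 ± 0.039. Cd82, at -0.030 ± 0.035, and Cd151, at -0.028 ± 0.029, were then below Cd63. The estimate of Canx was 0.069 ± 0.044, that of Flot2 was -0.062 ± 0.035 and that of Smpd3 was -0.060 ± 0.056. The only gene with every Shh library below every vehicle library was then Flot1, 1 of 10, beside 6.88% of all 11471 genes. Relative to the vehicle mean, Flot1 stood at -0.17, -0.061 and -0.068 in the Shh libraries and at -0.0047, -0.0073 and 0.012 in the vehicle libraries. Its log2 fold change was -0.10 ± 0.046, with an unadjusted p of 0.0432 and an adjusted p of 0.814 by edgeR. The ratio of Flot1 to Canx also stayed lower in all Shh libraries with the offset, at a log2 difference of -0.17, while the difference for Cd63 to Canx was -0.086. For Tspan8 to Canx the groups overlapped with the offset, at -0.068.

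**Figure D4:**
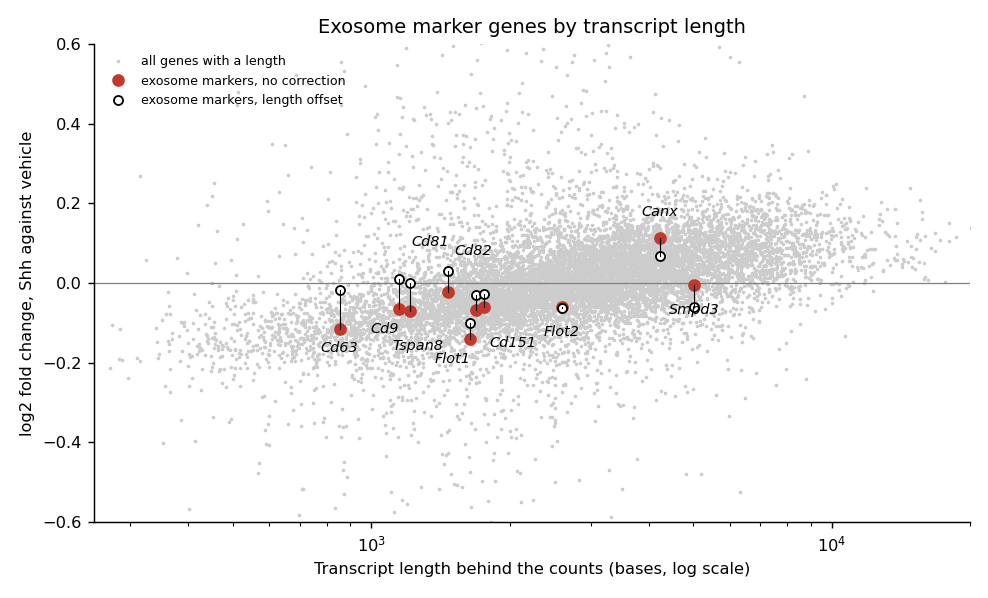
Log2 fold change, Shh against vehicle, by transcript length (bases, log axis) for 11471 genes in grey (92 lie outside the axes) and the 10 exosome marker genes without correction (red) and with the length offset (open). The cloud runs upward with length; Cd63 is at -0.11 without and -0.018 with the offset, Flot1 at -0.14 and -0.10, and Canx at 0.11 and 0.069.

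Other genes of the same membrane systems also showed small differences, and 0 of them were called at an adjusted p under 0.05 by edgeR, beside 0% of all genes. At an unadjusted p under 0.05 by edgeR, 4.83% of all genes tested were higher and 5.56% lower. The list counts here and below stand beside these shares. Of 16 tested tetraspanins outside the set, 1 was higher and 2 lower at an unadjusted p under 0.05, with a median log2 fold change of -0.042 (-0.026 with the length offset). The lower ones were Tspan4, with 203.6, 193.7 and 199.4 CPM under Shh against 224.2, 220.1 and 216.3 CPM under vehicle (log2 fold change -0.15 ± 0.039), and Cd53, a leukocyte tetraspanin, at -0.18 ± 0.077. The higher one was Tspan2 at 0.13 ± 0.054, or 0.082 with the offset. Tspan4, Cd53 and Tspan17 were lower in every Shh library than in any vehicle library, 3 of 16 beside 8.67% of all genes tested. In 0 of the 16 was every Shh library above, beside 6.79% of all genes. With the length offset Tspan4 stood at -0.093, Cd53 at -0.19 and Tspan17 at -0.068. Of 23 tested partners of tetraspanins, 2 were higher and 0 lower. Their transcripts were long (median 3948 bases), and the median log2 fold change of 0.028 turned to -0.011 with the length offset. Those higher were Adam10, the protease matured and guided by tetraspanins, at 0.16 ± 0.056, and Ptgfrn, a partner of Cd9 and Cd81, at 0.095 ± 0.043. With the offset Adam10 stood at 0.11 and Ptgfrn at 0.031.

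Of 26 genes of exosome cargo and release, 0 were higher and 0 lower at that p, and the median was 0.015 (0.0043 with the length offset). Anxa2, an annexin carried in exosomes, had a log2 fold change of -0.087 ± 0.045, and Pdcd6ip, which encodes the ESCRT partner Alix, had 0.072 ± 0.041. With the offset these were -0.028 for Anxa2 and 0.0066 for Pdcd6ip. Rab11a, a GTPase of recycling endosomes, had -0.13 ± 0.066 and Lamp2, a lysosomal membrane protein, had 0.093 ± 0.049. The offset moved these less, to -0.12 for Rab11a and 0.11 for Lamp2, but without Shh replicate 2 they were -0.065 and 0.054. Of 27 tested genes of sphingomyelin and ceramide metabolism, to which Smpd3 belongs, 1 was higher and 1 lower, with a median of -0.023 (-0.021 with the offset). They were Asah2, a neutral ceramidase, at 0.21 ± 0.087 and Smpdl3b, a membrane-bound relative of the acid sphingomyelinase, at -0.16 ± 0.060, or 0.15 and -0.14 with the offset. Without Shh replicate 2, Asah2 was at 0.12. Of 14 raft scaffold genes other than the flotillins, 0 were higher and 0 lower, with a median of -0.0055 that turned to 0.00012 with the offset. The prohibitin gene Phb2 had -0.071 ± 0.039, or -0.0097 with the offset.

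Beside Canx, 25 genes of the calnexin cycle were tested, of which 1 was higher and 1 lower at an unadjusted p under 0.05, with a median of -0.012 (-0.0078 with the length offset). Edem3, which trims the glycans of proteins bound for degradation, was at 0.16 ± 0.063, and Ddost, a subunit of the oligosaccharyltransferase, was at -0.13 ± 0.041. With the offset Edem3 stood at 0.084 and Ddost at -0.11. P4hb, a disulfide isomerase and the most abundant of these genes by FPKM, was at -0.022 ± 0.037. Of 8 other genes used as negative markers of exosomes, 0 were higher and 1 lower. That was Cyc1, a mitochondrial cytochrome, at -0.10 ± 0.045, and the median of the 8 was -0.042. With the offset these were -0.035 for Cyc1 and -0.025 for the median, and without Shh replicate 2 Cyc1 was at -0.058.

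The cells carried hepatocyte and fetal liver transcripts: the albumin gene Alb was at 967.0 to 1022 CPM with Shh and 990.9 to 1015 CPM with vehicle, and Afp at 377.6 to 397.2 CPM with Shh and 389.9 to 400.9 CPM with vehicle. Of the hepatocyte markers, Ttr, Ahsg and Serpina1a averaged 0.39, 0.20 and 0.050 CPM over the 6 libraries. Of 9 listed macrophage and leukocyte markers, 8 had a row and Clec4f did not. Summed over these 8 the level was 44.9 to 52.9 CPM with Shh and 50.8 to 52.3 CPM with vehicle. Over 7 stellate cell markers it was 19.5 to 63.9 CPM with Shh and 23.6 to 41.0 CPM with vehicle. Over 6 endothelial markers it was 1.42 to 3.32 CPM with Shh and 1.60 to 2.69 CPM with vehicle. The 5 cholangiocyte markers were far higher, at 713.7 to 754.8 CPM with Shh and 727.4 to 753.7 CPM with vehicle. Among them Spp1 averaged 494.7 CPM, Krt7 152.3 CPM and Sox9 74.3 CPM over the 6 libraries, while Epcam averaged 8.72 CPM and Krt19 6.14 CPM. Of the macrophage and leukocyte markers, Cd14 averaged 32.4 CPM, Cd68 13.6 CPM and Csf1r 2.57 CPM, while Ptprc averaged 0.49 CPM and Adgre1 0.13 CPM. None of these lists was at 0, the groups overlapped in each, and their part in the exosome marker values was not tested. Col1a1 had 21.8, 8.19 and 7.41 CPM with Shh against 7.98, 15.8 and 11.1 CPM with vehicle. Ptprc had 1.39, 0.39 and 0.15 CPM with Shh against 0.35, 0.25 and 0.40 CPM with vehicle. Shh replicate 1 was thus the highest library for Col1a1 and Ptprc, though not for Cd14, where it had 30.4 CPM against 32.9 CPM in Shh replicate 3. Whether this bears on the fits without Shh replicate 1 was not tested.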

How the data were processed

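RNA of Hepa 1-6 cells was sequenced by the study on a BGIseq platform from 3 Shh and 3 vehicle libraries. Estimated counts were deposited by the authors for each gene (36.4% of values above 0 were not whole, that is, off a whole number by more than 1e-06), together with FPKM, scaled by the authors for transcript length and library total. The submitters' processing notes name Bowtie2. The counter, genome build, annotation and strand setting are not given in the sources. A further 6 per-sample columns in another unit were not used. The design text of the series names liver exosomes while the sample labels name the cell line, which was followed.

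Counts were rounded and tested in R 4.3.3 with edgeR 4.0.16 (TMM, minimum count 10, minimum total 15, quasi-likelihood test, group as the only term), with Benjamini-Hochberg adjustment over all 12286 genes at 0.05. Lengths were recovered where FPKM was at least 0.5. As alternatives, the fit was repeated with upper-quartile factors, with DESeq2 1.42.0, without a filter, with at least 5 CPM in 3 libraries, with a replicate block, with a length offset (a spline per library, 5 degrees of freedom), with block and offset, and without each library. A length offset without Shh replicate 1 or 2 was chosen after seeing the data. The test was run on simulated counts. The runs with planted changes held no length trend and no outlying library, so they cannot tell how the test performs with these features. Genes overlapping Cd9, Cd81, Cd82, Cd151 and Smpd3 in RefSeq were not analysed here; without a known strand setting their reads could be counted with these genes. The exosome marker genes and the gene lists were chosen with earlier results of these data known. Named genes were the 10 markers and, per list, genes among up to 4 with the smallest p and up to 4 with the highest level. Genes sharing the ER element or named as markers at low level were chosen after their values were seen. Each exosome marker gene had 862 to 13477 counts per library.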

Additional observations from a re-analysis of the deposited data

How the results depend on the processing

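Over 15 alternatives, 0 of 150 fits of an exosome marker gene passed an adjusted p under 0.05 (lowest 0.0541), 139 had the direction given and 11 the opposite one. At an unadjusted p under 0.05, 1 exosome marker gene and 1277 of all genes passed. Over all genes the count was 0 with DESeq2, upper-quartile factors, the stricter filter and the replicate block, 1 without a filter, 1 with the length offset, 4 with the replicate block and length offset together, and 0 to 195 when a library was left out. It was 195 without Shh replicate 1, 3 when Shh replicate 2 was left out, 1 for Shh replicate 3 and 2 for vehicle replicate 3. With the length offset it was 11 without Shh replicate 1 and 2 without Shh replicate 2. The median log2 fold change of the 10 genes was -0.063, against -0.0229 with the length offset, -0.0235 with block and offset, and -0.0727 to -0.0344 when a library was left out. With the offset it was -0.0240 without Shh replicate 1 and -0.0161 without Shh replicate 2.

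Directions turned as follows, and apart from the construction of each setting the cause was not tested. With the length offset, Cd9 was at 0.0091, Cd81 at 0.029 and Ptch1 at -0.048; with block and offset they were at 0.0092, 0.029 and -0.045. With the offset and without Shh replicate 1, Cd9 was at 0.028, Cd81 at 0.046, Tspan8 at 0.034, Pdcd6ip at -0.0060, Phb2 at 0.0057, Hspa5 at 0.013 and Ptch1 at -0.051. With the offset and without Shh replicate 2, Cd63 was at 0.016, Pdia6 at 0.052, Ptch1 at -0.046 and Gli1 at -0.078. Without Shh replicate 2, Smpd3 was at 0.011, Hspa5 at 0.0033, Pdia6 at 0.050, Ptch1 at -0.0064 and Gli1 at -0.060. Without Shh replicate 3, Smpd3 was at 0.026 and Hsp90b1 at -0.0092. Smpd3 was at 0.016 without vehicle replicate 1, Hspa5 at 0.0032 without Shh replicate 1, and without vehicle replicate 2 Ptch1 was at -0.033 and Gli1 at -0.024. The other ends of these ranges were 0.10 for Hsp90b1, -0.041 for Hspa5, -0.062 for Pdia6, 0.073 for Ptch1 and 0.10 for Gli1.

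Deviations of libraries with the same replicate number had correlations of -0.040, -0.054 and 0.098, and number 3 alone correlated best with its own. With 3 libraries per group these correlations cannot decide whether the numbers pair the libraries, and the labels do not say. The replicate block left the count at 0. At this depth and spread, differences of the exosome marker genes beyond folds of 0.843 to 1.18 lay outside all of their 95% intervals, which differed in width between genes.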
